A study of Homo sapiens with 2 samples.

Results

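The ZNF-named genes encode zinc finger proteins, most of them known or presumed transcription factors. Members were taken as the gene IDs with a value in either library that GENCODE 29 assigns to a protein-coding gene named ZNF followed by a digit. They numbered 219 of the 16145 gene IDs with a value, and 219 of the 514 such genes in GENCODE 29 (42.6%). RNA-seq was carried out on HAL-01, an established human cell line whose label names pre-B acute lymphoblastic leukaemia, in 2 libraries. The Control library has no treatment stated in the labels, and the AG library came from cells given 0.8 mM 1,5-AG (1,5-anhydroglucitol, a sugar closely related to glucose) for 24 h. Each group was 1 library of 1 line, so no difference below has a replicate check, and the spread between cultures is unknown.

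The proteins of this family bind DNA, and in some cases RNA or other proteins, through C2H2 zinc fingers, short loops in which a pair of cysteines and a pair of histidines hold a zinc ion. Many carry a KRAB domain at the amino end, which recruits the corepressor TRIM28 and, through it, the histone methyltransferase SETDB1 and HP1 proteins. KRAB members are best known for silencing retroelements. Most human KRAB genes stand in tandem clusters on chromosome 19 that grew by duplication, so neighbours are often close in sequence. A smaller number of members carry a SCAN domain, which lets these proteins pair with one another, and the rest have neither.

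Values are FPKM, that is fragments divided by exon length and library total, as made by the authors. Whole fragments recovered from them put the library totals at 16240451 (Control) and 14857372 (AG). The ratio of AG to Control FPKM of a gene is given below with an exact 95% Clopper-Pearson interval from its fragments, which covers counting error only and compares these libraries, not the conditions. The log2 ratio is log2((AG FPKM + 1)/(Control FPKM + 1)), whose pseudocount of 1 FPKM understates the difference of low genes. Genes with a value in each library and an average of 1 FPKM or more are called expressed.

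The label was checked against marker genes. Of 15 pre-B cell markers, 10 were listed, with a median of 0.166 FPKM in Control and 0.233 in AG. Of 14 monocyte and granulocyte markers, 7 were listed, and 5 of these exceeded 10 FPKM in each library, with a summed level of 952 FPKM in Control and 497 in AG. CTSG alone gave 743 and 194 of these, and the other 6 summed to 209 in Control and 303 in AG. None of 7 T and NK cell markers was listed, and HBB, at 0.0472 FPKM in Control, was the only one of 6 erythroid markers. The cells therefore went against the label at the level of these markers and are named by it only as a label. The myeloid markers differed between the libraries in both directions, with 4 of 7 above a log2 ratio of 0, 3 below and a median of 0.28, and their part in the ratios below was not tested. In bulk RNA, fewer cells of a type and less RNA per cell cannot be told apart.

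Of the 219 members, 185 were listed in both libraries, 10 in Control only and 24 in AG only. A gene without a value is not read as unexpressed, since the files list no zeros and the sources used here do not say which genes were left out. Genes without a value in either library include the chromatin genes CHD4, HDAC1, RBBP4, CBX3 and DNMT1. Every count of listed genes in this text, markers included, carries this limit. Of the 185, 125 were expressed and 60 had a mean under 1 FPKM. The expressed members were mostly low, with a median of 3.85 FPKM against 8.24 for other expressed protein-coding genes. Of the 125, 42 averaged 5 FPKM or more, 17 averaged 10 or more and 3 averaged 20 or more. Levels of the expressed members spanned 1.04 to 53.4 FPKM, as the plot of levels shows.

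**Figure D1:**
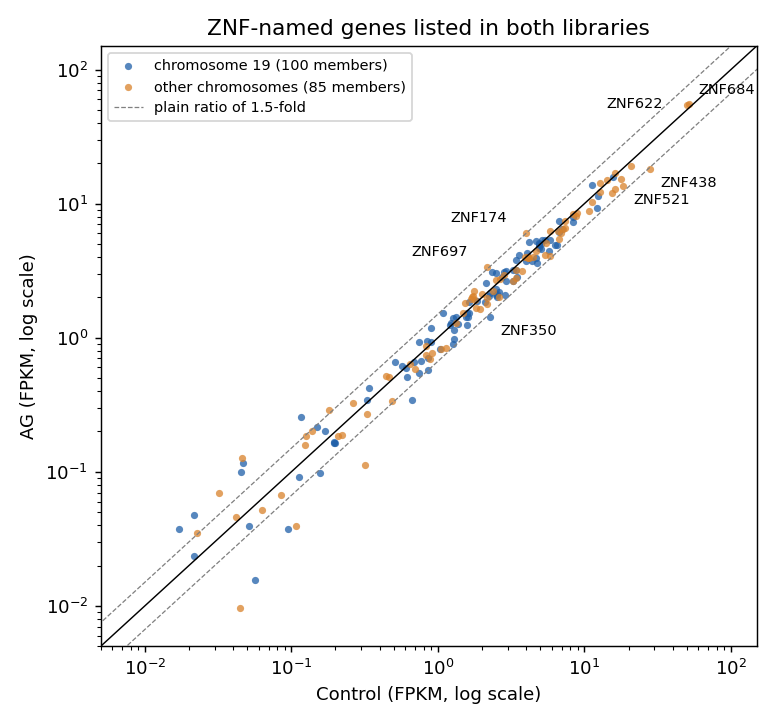
FPKM of the 185 members listed in both libraries, Control on the x axis and AG on the y axis, both on log scales. Each point is 1 gene, the solid line marks equal values and the dashed lines a plain ratio of 1.5. Members above 1 FPKM lie close to the line, and the scatter widens below 1 FPKM, where few fragments were counted.

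ZNF622 and ZNF684 stood above all other members. ZNF622, a factor in maturation of the large ribosomal subunit, had 51.9 FPKM in Control and 55.0 in AG. ZNF684, a KRAB protein encoded on chromosome 1, had 50.4 and 54.7, a ratio of 1.09 (1.03 to 1.15). The next levels were about those of ZNF438 (27.8 and 18.2 FPKM) and ZNF644 (20.9 and 18.9). ZNF664 had 16.1 and 16.8, ZNF131 17.7 and 15.2, and ZNF317 15.6 and 15.8. ZNF592 had 14.2 and 15.1. ZNF521 and ZNF22, also among the 10 highest, are described below. Of these 10, only ZNF684 and ZNF317 had a KRAB domain, and only ZNF317 lay on chromosome 19.

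As a family the expressed members differed little between the libraries, with a small shift toward lower values in AG. Their log2 ratio had a median of -0.06 and an SD of 0.18 across genes, with quartiles of -0.18 and 0.06 and a range from -0.59 to 0.50. Of the 125, 45 were above 0 and 80 below. All 5528 expressed genes had a median of -0.03 and an SD of 0.33, with 2386 above 0 and 3142 below. The members' median was -0.03 with a pseudocount of 5 FPKM, -0.04 after scaling by the median of ratios and -0.09 among members that averaged 5 FPKM or more. Within 1.2-fold on this scale lay 107 members (85.6%), against 75.3% of all expressed genes, but the pseudocount draws low genes toward 0. All expressed genes also include genes that are not protein-coding. Against other protein-coding genes the widths between the quartiles were alike (below).

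No member was higher in AG by at least 1.5-fold on this scale and 1 was lower, ZNF438, or 0.8% of the 125. Among all expressed genes 6.93% were at least 1.5-fold apart, 3.6% higher and 3.33% lower, and among expressed protein-coding genes 3.78%. The call of ZNF438 rested on the threshold, since rescaling AG by 1.005 to a common total or by 1.03 to the median of ratios left it just inside. The pseudocount narrows the differences of low genes, and ZNF-named genes were low. On the plain FPKM ratio, an alternative added after the data were seen, 4 of 125 (3.2%) were at least 1.5-fold apart, ZNF438, ZNF350, ZNF697 and ZNF174. The share of all expressed genes on that scale was 12.1%, and of expressed protein-coding genes 6.6%.

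The members' ratios had a smaller SD than those of other protein-coding genes, while the widths between the quartiles were alike. On the plain log2 ratio, with no pseudocount, the SD across genes was 0.23 for the members and 0.39 for 4296 other protein-coding genes with recovered fragments. The width between the quartiles was 0.31 and 0.28. On the scale with the pseudocount these widths were 0.24 for both. Counting error alone would give an SD of 0.13 for the members, or 33.5% of their variance, and of 0.12 for the other genes, or 9.54%. The members rested on a median of 350 fragments in Control and 293 in AG, and the other genes on 715.5 and 653.

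**Figure D2:**
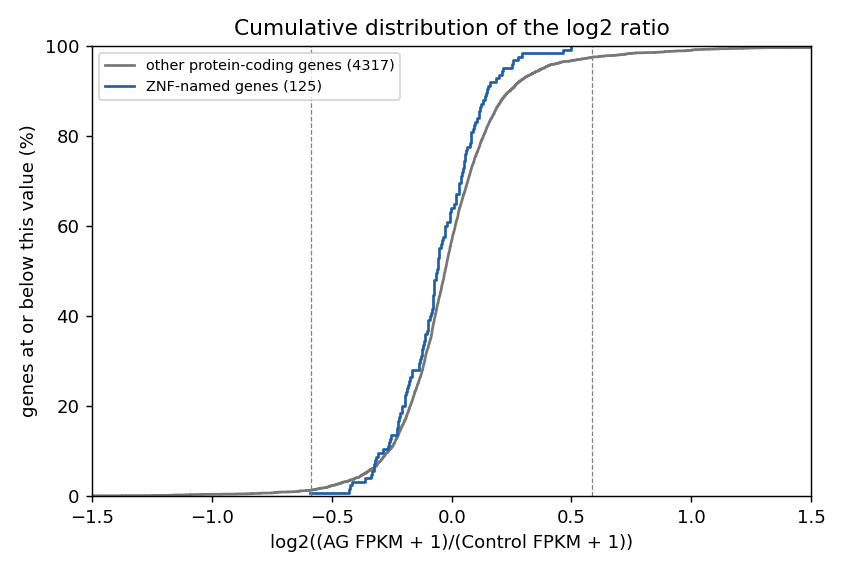
Cumulative share of expressed genes (y axis, percent) at or below each log2 ratio of AG to Control (x axis) for the 125 members and for 4317 other protein-coding genes. The dashed lines mark 1.5-fold, and values beyond 1.5 on either side of the x axis are not drawn. The members' values end at -0.59 and 0.50, inside the range of the other genes.

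For 41 of the 125 (32.8%) the counting interval of the plain ratio excluded 1, with 31 below 1 (24.8%) and 10 above (8%). Among 5465 expressed genes with recovered fragments, 39.7% excluded 1, with 22.9% below and 16.9% above. The intervals are not adjusted for the number of genes. The plot of ordered ratios shows that most members' intervals cross 1. Those at the very ends exclude it, but the members are ordered by the same ratio, so this follows largely from the ordering.

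**Figure D3:**
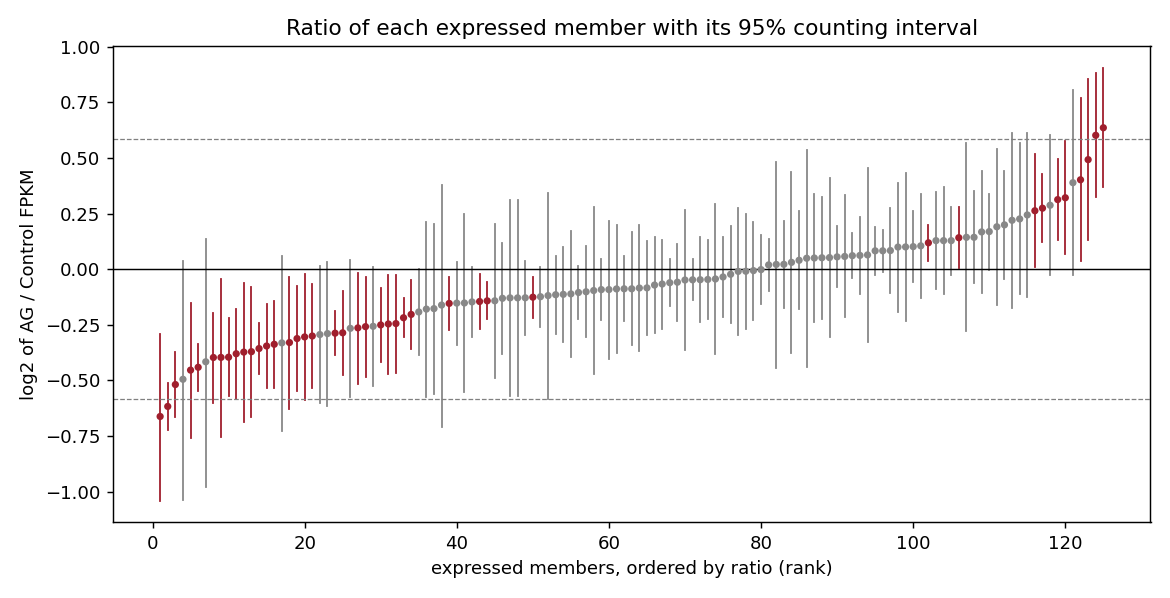
Log2 of the plain AG to Control FPKM ratio (y axis) of the 125 expressed members in order of the ratio (x axis, rank). Vertical lines are 95% counting intervals, drawn in red for the 41 that exclude a ratio of 1 and in grey for the others, and the dashed lines mark 1.5-fold.

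The members lowest in AG relative to Control included 2 of the most abundant ones. ZNF438 (ENSG00000183621), on the minus strand of chromosome 10 at 30820207 to 31031937 in GRCh38, had 27.8 FPKM in Control and 18.2 in AG, or 1929 and 1151 fragments. Its ratio was 0.652 (95% counting interval 0.606 to 0.702), with a log2 ratio of -0.59. ZNF521 (ENSG00000198795), on the minus strand of chromosome 18 at 25061926 to 25352190, encodes a protein that regulates blood progenitors and binds the NuRD complex. A search by the cysteine and histidine spacing found 27 fingers in this protein. ZNF521 was at 18.2 FPKM in Control and at 13.4 in AG, from 1844 and 1243 fragments, a ratio of 0.737 (0.685 to 0.792). ZNF618 (ENSG00000157657), on chromosome 9 at 113876282 to 114056591, encodes a partner of UHRF2 at hydroxymethylated DNA. It was at 5.81 and 4.06 FPKM, from 980 and 626 fragments, a ratio of 0.698 (0.631 to 0.773). These 3 genes have no KRAB or SCAN domain, share no exonic sequence with another annotated gene, and lie on 3 different chromosomes.

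ZNF350 (ENSG00000256683), a KRAB protein also called ZBRK1, lies on chromosome 19 at 51964343 to 51986856. It was at 2.25 FPKM in Control and at 1.42 in AG, with a ratio of 0.632 (0.486 to 0.818). This was the lowest plain ratio of the expressed members, but it rested on 166 and 96 fragments, and its log2 ratio was -0.42, and -0.17 with a pseudocount of 5 FPKM. The other members among the 10 lowest were ZNF700, ZNF428, ZNF512B, ZNF22, ZNF616 and ZNF440, with log2 ratios from -0.36 to -0.32. ZNF512B was at 15.4 FPKM in Control and at 12.03 in AG, a ratio of 0.781 (0.721 to 0.845). ZNF22 had 16.2 and 12.8, a ratio of 0.787 (0.690 to 0.897). ZNF428, ZNF512B and ZNF22 overlap exons of a gene on the other strand, and ZNF700 and ZNF616 exons of a gene on the same strand. The sources used here do not give the strand setting of the counting, so reads of overlapping genes cannot be told apart.

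The highest members were of low to middling level. ZNF174 (ENSG00000103343), a SCAN domain protein with 3 fingers, lies on chromosome 16 at 3401235 to 3409370. It had 4.01 FPKM in Control and 6.08 in AG, from 188 and 261 fragments, a ratio of 1.52 (1.25 to 1.84), and it shares exonic sequence with a gene on the same strand. ZNF697 (ENSG00000143067), on the minus strand of chromosome 1 at 119619422 to 119647773, had 2.17 and 3.38 FPKM, from 197 and 280 fragments, a ratio of 1.55 (1.29 to 1.87). Their log2 ratios were 0.50 and 0.46, and the next gene was at 0.29, so this pair lay above all the others. Of the 10 highest, 7 lay on chromosome 19, where 68 of the 125 expressed members lie.

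ZNF114 had 2.35 and 3.10 FPKM, a ratio of 1.32 (1.02 to 1.71). ZNF100 had 1.08 and 1.52, a ratio of 1.41 (1.10 to 1.81). ZNF430 had 4.16 and 5.17, a ratio of 1.24 (1.09 to 1.41). ZNF100 and ZNF430 are KRAB genes of the same chromosome 19 cluster and share part of their coding sequence. ZNF787, the most abundant of the 10, had 11.3 and 13.7 FPKM, a ratio of 1.21 (1.09 to 1.34). ZNF641 had 1.77 and 2.22, and ZNF444, also a SCAN protein, had 2.12 and 2.54, with a counting interval of 1.01 to 1.43. The intervals of ZNF324B (2.49 and 3.04 FPKM) and ZNF570 (0.897 and 1.17) include 1, and ZNF324B shares 32.2% of its 50-base coding windows with other ZNF-named genes, above all ZNF324.

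Members were also grouped by what they are known to do. Among chromatin enzyme partners, 5 of 9 list members were listed and 4 were expressed, at 8.70 FPKM or more on average. Their median log2 ratio was -0.09 and 3 of 4 were below 0, against 80 of the 125 expressed members. ZNF644, a partner of the histone methyltransferases G9a and GLP, had a ratio of 0.906 (0.855 to 0.960). ZNF687 and ZNF592 belong to a module with ZMYND8 that reads and edits chromatin. ZNF687 was at 11.3 FPKM in Control and at 10.2 in AG, a ratio of 0.904 (0.829 to 0.986), while ZNF592 had a ratio of 1.06 (0.993 to 1.13), so members of this module were on different sides of 1. ZNF518A had 8.89 and 8.52 FPKM, a ratio of 0.959 (0.891 to 1.03). ZNF827, which recruits the NuRD complex to telomeres in some tumour cells, was near 0 at 0.0225 and 0.0352 FPKM.

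Of 9 members listed for genome and chromatin organisation, 4 were listed and 2 were expressed, and neither interval excluded 1. ZNF384, known as a fusion partner in B cell leukaemia, was at 8.40 FPKM in Control and at 8.39 in AG, a ratio of 0.999 (0.896 to 1.11). ZNF639 had 5.86 and 6.29, a ratio of 1.07 (0.960 to 1.199). ZNF462 had 0.445 and 0.519 FPKM. ZNF410, an activator of the NuRD ATPase gene CHD4, had 0.209 and 0.187, from 22 and 18 fragments. A value this low can also reflect reads that were not counted.

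Of 11 genes of TRIM28-linked repression of retroelements and imprints, 4 were listed and 2 were expressed. ZNF93, a repressor of LINE-1 elements, was at 8.33 FPKM in Control and at 7.24 in AG, a ratio of 0.869 (0.779 to 0.968). ZNF268 had 2.01 and 2.13, a ratio of 1.06 (0.928 to 1.21). ZNF43 and ZNF90 were listed in AG only, at 1.03 and 0.0221 FPKM. Of 8 blood cell regulators, ZNF521 (above) and ZNF300 were listed, the latter on 3 fragments in each library (0.0419 and 0.0458 FPKM). Of 11 proteins of RNA, ribosomes and the spindle, ZNF622 and ZNF326 were listed. ZNF326, of the complex that couples RNA polymerase to splicing, was at 7.35 FPKM in Control and at 6.61 in AG, a ratio of 0.899 (0.829 to 0.975). ZNF622 had a ratio of 1.06 (0.983 to 1.14).

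By position, the chromosome 19 members and the others had nearly the same median ratio. Of the 219, 116 lay on chromosome 19 and 103 on 20 other chromosomes, and 68 and 57 of these were expressed. The chromosome 19 members had a median of 3.09 FPKM in Control and 3.11 in AG, and the others 4.48 and 4.06. Both medians of the log2 ratio were -0.06, with a difference of -0.00146, and the SDs were 0.16 and 0.19. On chromosome 19, 25 members were above 0 and 43 below, and elsewhere 20 and 37. The range was -0.42 to 0.29 on chromosome 19 and -0.59 to 0.50 elsewhere, so on this scale the extremes at both ends lay off chromosome 19. On the plain ratio the lowest member was ZNF350 on chromosome 19, at 0.632, against 0.652 for ZNF438. The pseudocount narrows the differences of low genes, and the chromosome 19 members had the lower median level. Elsewhere, chromosome 10 (picked once its values were known) had 6 of 6 expressed members below 0 (median -0.17). Of these, 3 had an interval below 1, against 24.8% of the 125 members and 22.9% of all expressed genes. Chromosome 18 had 2 of 2 below 0 (median -0.30), and chromosome 3 had 2 of 2 above 0 (median 0.06).

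Chromosome 19 members fell into 16 runs, here numbered along the chromosome, with no gap over 1 Mb between neighbouring members. In each of 7 of these, 5 or more members were expressed. Cluster 3 (8509678 to 9675086) had a median log2 ratio of 0.01 over 6 members, from ZNF266 at -0.10 to ZNF561 at 0.11. Cluster 6 (19668796 to 23250390) had -0.08 over 12, from ZNF724 at -0.22 to ZNF100 at 0.28. Cluster 9 (36182060 to 37817300) had -0.01 over 5, from ZNF790 to ZNF570.

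Toward the end of the chromosome, cluster 12 (43607219 to 45076588) had -0.07 over 6, from ZNF428 to ZNF296. Cluster 15 (51964343 to 53496255) had -0.10 over 9, from ZNF350 to ZNF701. Cluster 16 (55476332 to 58481230), with 27 listed members the largest, had -0.10 over 17, from ZNF134 at -0.29 to ZNF787 at 0.25. Cluster 4 (11767000 to 12640098) stood lowest, at -0.27 over 6. In all 7 of these clusters members lay on both sides of 0. Of 54 pairs of neighbouring expressed members in the same cluster, 27 had the same sign, and the median size of their difference was 0.16.

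**Figure D4:**
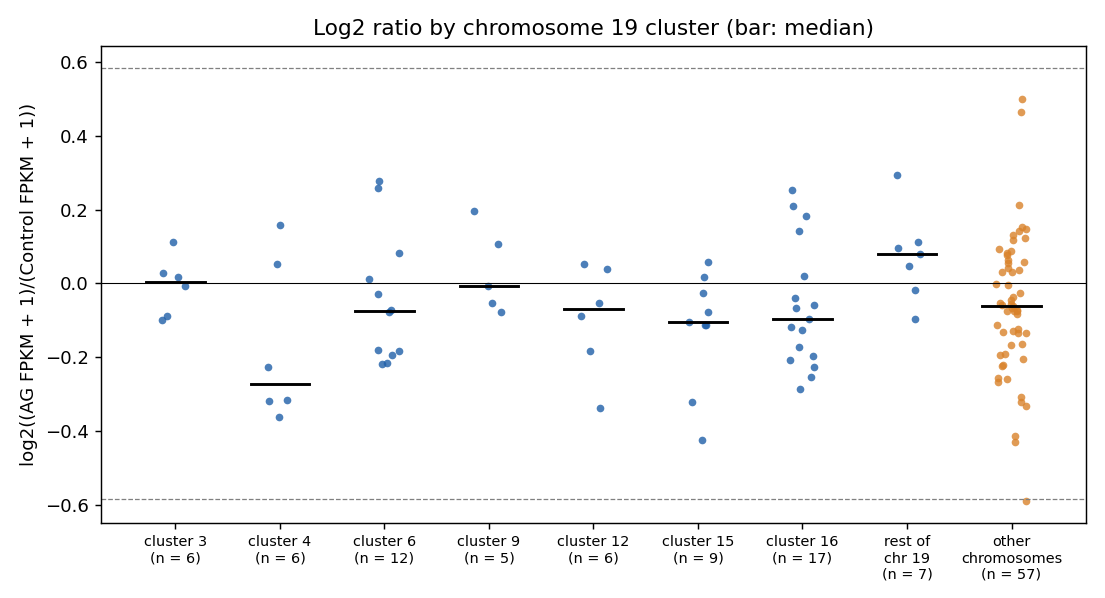
Log2 ratio of AG to Control (y axis) of each expressed member, by chromosome 19 cluster with 5 or more expressed members, for the other chromosome 19 members and for other chromosomes. Bars are medians and the dashed lines mark 1.5-fold. In cluster 4, 4 of 6 points lie between -0.36 and -0.23 and the others above 0.

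In cluster 4 the neighbours ZNF440, ZNF439 and ZNF700 were lower in AG with like ratios, and ZNF441, the nearest expressed member upstream, was not lower. ZNF440 was at 4.72 FPKM in Control and at 3.59 in AG, a ratio of 0.760 (0.660 to 0.873). ZNF439 (picked once its values were known) had 5.74 and 4.41, a ratio of 0.769 (0.667 to 0.885). ZNF700 had 12.2 and 9.27, a ratio of 0.760 (0.673 to 0.858). All 3 intervals lie below 1, as did those of 24.8% of the expressed members and 22.9% of all expressed genes. ZNF441 had 3.61 and 4.14, a ratio of 1.15 (0.971 to 1.36), whose interval does not overlap those of the 3 others. The cluster was taken up because it stood lowest, and ZNF440 and ZNF700 were named for their low ratios. Intervals below 1 and apart from that of ZNF441 therefore follow in part from the choice. The remaining expressed members of the cluster were ZNF136, with 2.52 and 2.003 FPKM and a ratio of 0.796 (0.648 to 0.976), and ZNF791, with 5.15 and 5.38 and a ratio of 1.04 (0.925 to 1.18).

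These 4 neighbours are copies of one another to different degrees, which bears on how far their ratios are separate measurements. The 84 bases that code for 1 finger unit are shown for each, from the GENCODE 29 transcript, with the codons of the zinc-binding cysteines and histidines in capitals. The unit is the first finger of each protein that is followed by the linker residues TGEKP. It begins at residue 310 in ZNF441, 202 in ZNF440, 216 in ZNF439 and 227 in ZNF700. The units were not matched by position, so that of ZNF441 may be a different finger.
ZNF441: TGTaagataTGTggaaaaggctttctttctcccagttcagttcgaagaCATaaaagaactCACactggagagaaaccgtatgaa
ZNF440: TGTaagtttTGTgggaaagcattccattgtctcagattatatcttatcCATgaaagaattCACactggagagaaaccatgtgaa
ZNF439: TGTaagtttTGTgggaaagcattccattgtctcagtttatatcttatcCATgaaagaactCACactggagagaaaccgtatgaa
ZNF700: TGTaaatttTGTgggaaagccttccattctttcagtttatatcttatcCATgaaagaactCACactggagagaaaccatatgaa
ZNF440 and ZNF439 were identical at 80 of these 84 bases (95.2%), ZNF439 and ZNF700 at 79, and ZNF440 and ZNF700 at 77. ZNF441 matched them at 63 to 67. Over the aligned coding sequence, identity was 92.5% for ZNF440 and ZNF439, 90.5% for ZNF439 and ZNF700 and 89.8% for ZNF440 and ZNF700, but 70.0% to 72.9% between ZNF441 and these. Of all 50-base windows of the coding sequence, 11.7% of ZNF439, 8.91% of ZNF440, 5.62% of ZNF700 and 0.0492% of ZNF441 occur in another ZNF-named gene. Across the 125 expressed members this share exceeded 10% in 17, ZNF322, ZNF587 and ZNF492 above 50%, and was 0 in 75. The sources used here do not give the authors' rule for reads that match several genes. The levels and ratios of ZNF440, ZNF439 and ZNF700 are therefore uncertain, and how far reads were shared between them was not tested.

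The promoters of the 4 neighbours are shown because 3 of them had like ratios. They come from RefSeq (GRCh38.p14) and run from 250 bases before the start to 10 after it, on the gene's strand. Capitals mark CCAAT, the box bound by NF-Y, and GGGCGG, the GC box bound by SP1 and its relatives. The windows lie at chr19:11766750-11767009, chr19:11814023-11814282, chr19:11848476-11848735 and chr19:11924857-11925116, all on the plus strand.
ZNF441: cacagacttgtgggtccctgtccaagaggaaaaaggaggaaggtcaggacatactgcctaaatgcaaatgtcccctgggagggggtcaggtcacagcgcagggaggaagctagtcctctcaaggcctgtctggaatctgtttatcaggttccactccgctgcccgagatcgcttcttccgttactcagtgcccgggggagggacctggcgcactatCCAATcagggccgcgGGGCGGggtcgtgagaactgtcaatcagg
ZNF440: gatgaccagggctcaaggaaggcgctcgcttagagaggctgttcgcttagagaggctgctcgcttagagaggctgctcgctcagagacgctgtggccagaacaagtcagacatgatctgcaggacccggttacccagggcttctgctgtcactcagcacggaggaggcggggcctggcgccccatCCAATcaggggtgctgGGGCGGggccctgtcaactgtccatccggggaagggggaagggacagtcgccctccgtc
ZNF439: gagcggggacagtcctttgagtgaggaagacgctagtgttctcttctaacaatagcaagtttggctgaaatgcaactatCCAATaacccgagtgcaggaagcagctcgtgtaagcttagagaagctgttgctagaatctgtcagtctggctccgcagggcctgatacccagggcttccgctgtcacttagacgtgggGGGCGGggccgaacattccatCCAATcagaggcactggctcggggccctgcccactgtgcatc
ZNF700: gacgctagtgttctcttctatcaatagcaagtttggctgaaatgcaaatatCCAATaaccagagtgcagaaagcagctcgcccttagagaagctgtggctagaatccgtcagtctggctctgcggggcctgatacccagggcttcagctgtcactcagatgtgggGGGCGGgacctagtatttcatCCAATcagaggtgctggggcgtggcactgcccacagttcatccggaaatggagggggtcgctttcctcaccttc
All 4 windows hold a CCAAT close to a GGGCGG. The CCAAT begins at -34 in ZNF441, at -65 in ZNF440, at -32 and -171 in ZNF439 and at -64 and -199 in ZNF700. Aligned over their full 300-base windows, the promoters of ZNF439 and ZNF700 were 85.4% identical at 268 aligned bases, gaps left out. That of ZNF440 was 69.4% identical to ZNF439 and 64.4% to ZNF700, and that of ZNF441 43.3% to 54.4% to the others. ZNF441 also carries CCAAT and GGGCGG, and whether these letters bear on the ratios was not tested.

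ZNF438, the member with the lowest log2 ratio, is shown for contrast (chr10:31031856-31032115, minus strand). Capitals mark GGGCGG and TGACGTCA, the full cAMP response element.
ZNF438: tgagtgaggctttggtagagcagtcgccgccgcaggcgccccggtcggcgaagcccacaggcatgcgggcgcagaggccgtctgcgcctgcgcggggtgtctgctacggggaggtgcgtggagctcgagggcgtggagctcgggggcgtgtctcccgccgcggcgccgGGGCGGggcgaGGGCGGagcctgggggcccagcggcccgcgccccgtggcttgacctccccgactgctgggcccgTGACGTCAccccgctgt
This window holds GGGCGG at -82 and -71 and TGACGTCA at -7, and no CCAAT in these 260 bases.

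Across the family, promoter windows of 300 bases were on hand for 185 members (235 windows) and 27305 genes in all (35116 windows). Letters were searched on both strands. CCAAT was in 44.3% of member windows and 34.6% of all, and GGGCGG in 59.6% and 45.0%. The longer word TCCAATCAG, which contains CCAAT and was picked once the sequences above were known, was in 33 of 235 member windows (14.04%) and in 298 of all 35116 (0.849%). It was in 18 of 69 windows of expressed chromosome 19 members (26.1%). TGACGTCA was in 2.55% and 1.85%. The median log2 ratio was -0.08 for the 22 expressed members with TCCAATCAG and -0.06 for the 88 without. Members share ancestry, so their windows are not independent. A match is a description of letters and not of binding.

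By domain, members with and without KRAB had similar median ratios, and the KRAB members were lower in level. Coding sequences of 218 members gave 145 with KRAB, 7 with SCAN (3 of them with KRAB too) and 69 with neither. KRAB was present in 99 of 116 members on chromosome 19 (85.3%) and in 46 of 102 elsewhere (45.1%). The 79 expressed KRAB members had a median of 2.91 FPKM in Control and 2.82 in AG, and the 44 with neither domain had 5.61 and 4.95. Their median log2 ratios were -0.06 and -0.08. The 2 expressed members with SCAN and no KRAB, ZNF174 and ZNF444, were both above 0. The other SCAN members listed in both libraries averaged under 1 FPKM. They were ZNF165, ZNF287, ZNF483 and ZNF446, all just below 0, from -0.04 to -0.01. KRAB members had a median of -0.08 on chromosome 19 (56 genes) and -0.03 elsewhere (23 genes).

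The number of fingers, found by the cysteine and histidine spacing, had a median of 10 and reached 33 in ZNF462. Expressed members with up to 5 fingers had a median log2 ratio of -0.08 (25 genes), those with 6 to 10 had 0.01 (42), those with 11 to 15 had -0.06 (38) and those with 16 or more had -0.15 (20). The medians did not follow the order of finger number, and across the 125 genes the Pearson r of finger number with the log2 ratio was -0.077. In the group with 16 or more fingers 15 of 20 were below 0, ZNF521 and ZNF700 among them, against 80 of all 125. By mean level, the 31 highest members had a median of -0.11, with 23 below 0, and the 32 lowest had -0.01, with 16 below. All these values come from the same pair of libraries.

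**Figure D5:**
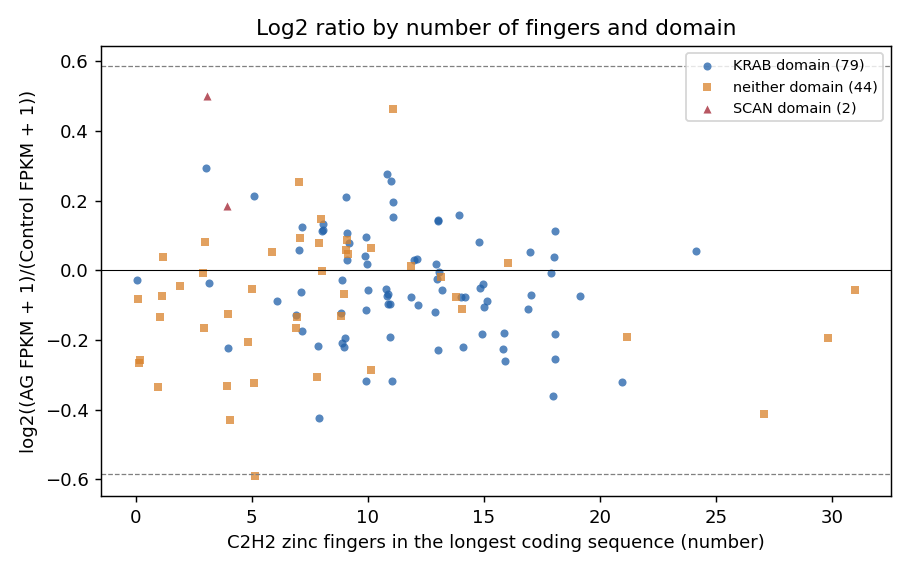
Log2 ratio of AG to Control (y axis) against the number of C2H2 fingers (x axis) for the 125 expressed members, by domain. Points are shifted sideways by up to 0.2 finger to show overlap, and the dashed lines mark 1.5-fold. KRAB members sit between -0.42 and 0.29, and the most extreme points on both sides have no KRAB domain.

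The listed corepressors of KRAB proteins were within 1.5-fold. Of 13 genes of the TRIM28 and SETDB1 list 6 were listed, all expressed, with a median log2 ratio of -0.09 and 5 of 6 below 0. TRIM28 was at 108 FPKM in Control and at 91.8 in AG, a ratio of 0.849 (0.821 to 0.879). CBX1, an HP1 protein, was lowest at 44.7 and 35.3, a ratio of 0.790 (0.741 to 0.843). SETDB1 was highest at 11.9 and 12.3, a ratio of 1.03 (0.957 to 1.12). Of 13 subunits of NuRD, the deacetylase complex that ZNF521 and ZNF827 bind, 8 were expressed, with a median of -0.07 and 6 of 8 below 0. They ran from GATAD2B, with 2.14 and 1.61 FPKM, to MTA3, with 1.67 and 1.74. Among all 5528 expressed genes 3142 were below 0, so the counts below 0 in lists this small set neither list apart.

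Related zinc finger families also centred near 0. The ZBTB genes had a median log2 ratio of -0.03 over 15 expressed members, the ZSCAN and ZKSCAN genes -0.10 over 7 and the ZFP genes 0.03 over 7. No ZBTB, ZSCAN or ZKSCAN gene was past 1.5-fold, and 1 ZFP gene was higher. Among expressed protein-coding genes 3.78% were past it either way, so counts in families this small set none of them apart.

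The 60 members listed in both libraries with a mean under 1 FPKM rested on a median of 39 fragments over both. Their mean levels ran from 0.0226 FPKM upward with a median of 0.225, and their log2 ratios from -0.31 to 0.17. For 5 of the 60 the interval of the plain ratio excluded 1, near the 7.79% of all genes listed in both libraries with a mean under 1 FPKM, and they are named for that reason. ZNF345 was at 0.663 FPKM in Control and at 0.341 in AG, a ratio of 0.514 (0.303 to 0.851), and ZNF185 had 0.320 and 0.112, from 25 and 8 fragments. ZNF519 had 1.049 and 0.827, and ZNF493 had 1.04 and 0.822. ZNF285 was the only one higher, with 0.117 and 0.255 from 13 and 26 fragments.

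Members listed in 1 library only were more often in AG. There were 24 in AG only (10.96% of 219) and 10 in Control only (4.57%), against 8.46% and 7.69% of 7434 other protein-coding genes. Of the 24, 13 had at least 1 FPKM (5.94% of 219, against 1.75% of other protein-coding genes), and of the 10 just 1 did (0.457%, against 0.552%). The highest in AG were ZNF841 at 6.98 FPKM, ZNF736 at 6.36 and ZNF273 at 4.90, and the one in Control was ZNF184 at 3.11. These were picked by their values. Without a value in the other library they have no ratio, and whether a missing value is a low level or a gene that was not reported was not tested.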

How the data were processed

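Total RNA of HAL-01 cells was sequenced from stranded mRNA libraries, per the labels' protocols, in 1 Control and 1 AG library. The authors deposited 1 FPKM value per gene and library. Per the submitters' processing notes the build was hg38 and the tools were HTSeq, Cufflinks, HISAT2 and Trimmomatic, with no version. The sources used here give no gene annotation, strand setting or rule for multiply mapped reads. Since FPKM is relative to the library total, a few abundant genes can shift all others.

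Gene IDs were matched to GENCODE 29 (GRCh38), which held 97.1% of 16145. FPKM times exon length gave whole fragments, within 0.01, for 88.4% of 5315 single-transcript genes in Control and 88.1% of 5259 in AG, and this gave the library totals. A pair of whole fragment numbers was recovered for all 185 members listed in both libraries, at the exact GENCODE length for 49 and within 5% of it for 152. Fragments are not independent molecules, so intervals cover counting error only. The steps were tested on simulated data with gene lengths off by a few percent, which does not cover members recovered at more distant lengths.

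Domains were called on the longest coding sequence with HMMER 3.4 profiles (E value 1e-05). Promoters came from RefSeq. Named were the 10 highest and 10 lowest log2 ratios, the 10 highest levels, listed members of the role lists, and the extremes of each chromosome 19 cluster and corepressor list, with exceptions named. Members and lists were chosen with earlier results of these data known. With 1 library per group no test was run. Software was Python 3.11.15 with Biopython 1.88, scipy 1.17.1, numpy 2.4.6, matplotlib 3.10.9 and pandas 2.3.3. The alternatives tried were a pseudocount of 0.1 or 5 FPKM, other filters, scalings and thresholds, and leaving out members with overlapping exons or shared sequence.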

Additional observations from a re-analysis of the deposited data

How the results depend on the processing

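No paired analysis was possible because each group is 1 library. Of 52 values of the family as a whole under other settings, 32 stayed within 1.5 times the reported value and 20 did not, and no median changed sign. The median log2 ratio of expressed members (-0.0613) was -0.0339 with a pseudocount of 5 FPKM, -0.0365 after scaling by the median of ratios, -0.0396 with no filter on low values and -0.0939 among the 42 members that averaged 5 FPKM or more. The chromosome 19 median (-0.0627) was -0.0278 with a pseudocount of 5 FPKM, -0.039 after scaling by the median of ratios, -0.0376 with no filter and -0.0405 without members with overlapping exons. The median elsewhere (-0.0613) was -0.034 with a pseudocount of 5 FPKM, -0.0365 after scaling by the median of ratios and -0.0931 among members that averaged 5 FPKM or more. The SD was 0.108 with a pseudocount of 5 FPKM. The count of members at least 1.5-fold higher was 2 with a pseudocount of 0.1 FPKM and 2 on the plain ratio, and the count lower was 2 in both. The count lower was 0 with a pseudocount of 5 FPKM, after rescaling to a common total, after scaling by the median of ratios and at 2-fold. Of 192 values of 48 named members under other settings, 189 stayed inside the gene's counting interval, and 2 members changed sign. The 3 outside were ZNF350, ZNF618 and ZNF697 with a pseudocount of 5 FPKM. The plain ratio and the removal of members with shared sequence were added after the data were seen.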
